A study of Mus musculus with 12 samples.

Results

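Knockdown of Klf5 and knockdown of Nr5a2, which both lower Klf5 mRNA in the 8-cell mouse embryo, were set against each other. The 3 libraries from embryos injected with siRNA against Klf5 (Klf5 KD) were compared with the 3 libraries from embryos injected with siRNA against Nr5a2 (Nr5a2 KD), which are 6 of the 12 RNA-seq libraries of the series, chosen by their labels. The comparison asks which genes distinguish the loss of NR5A2 from the loss of KLF5 when the Klf5 transcript is low in both. The 2 control libraries and the 4 libraries of the double knockdown (Nr5a2 Klf5 dKD) were not part of the main test. They were used to place these genes and in an alternative fit of all 12 libraries, and the dKD libraries were checked for outlying values.

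NR5A2 is an orphan nuclear receptor that binds DNA as a monomer and can open closed chromatin. In the mouse embryo it acts from zygotic genome activation onwards, and it is also known for its part in steroid, bile acid and lipid metabolism in adult tissues. KLF5 is a zinc finger factor of the Krüppel-like family that binds GC-rich and CACCC-type sequences, and is known for its roles in the trophectoderm and the inner cell mass. The 8-cell embryo is the stage at which blastomeres compact and polarize, shortly before these first lineages separate.

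Zygotes of superovulated B6129F1 females mated with B6CBAF1 males received siRNA by injection, at 5 µM for Nr5a2, at 10 µM for Klf5 and at 15 µM for the control siRNA, so the amount also differs between the groups compared. The concentrations in the dKD are not stated. All groups also received mRNA for H2B-EGFP, a nuclear marker of a successful injection, and were grown in KSOM medium. Each library holds 10 whole embryos at the 8-cell stage, so a difference can come from some embryos or from all. A knockdown lowers an mRNA and does not remove it. Nothing in the labels says whether replicates came from separate litters or injection days, so the p-values measure the spread between libraries, which may be technical. Lysates received ERCC spike-ins, and polyadenylated RNA was amplified as cDNA without molecular identifiers.

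The 6 libraries held 7000245 to 12560926 counts on genes, the highest in Klf5 KD replicate 1, which also had the lowest share of mitochondrially encoded counts. Intervals from counts cover counting error only, since PCR copies were not told apart. Mitochondrially encoded genes took 6.18 to 12.5% of the counts in Nr5a2 KD and 4.41 to 11.8% in Klf5 KD, ranges that overlap. The 2 control libraries, used below to place genes, were at 13.2 and 12.9%, above all 6 of these. Whether this moves levels relative to control was not tested. The 7 markers of the 8-cell embryo were present in every group, and 2 of them, Nr5a2 and Tfap2c, were called between the groups. Of the 11 markers of cumulus and granulosa cells, which surround the oocyte, the summed level was 10.9 to 14.2 CPM (counts scaled to the size of the library) in Nr5a2 KD and 17 to 21.3 CPM in Klf5 KD, with 7 and 4 of them at 0. The 7 markers of oocyte and polar body summed to 75 to 93 CPM in Nr5a2 KD and 57.2 to 68.2 CPM in Klf5 KD. For these 2 lists the groups did not overlap, no member was called by edgeR (2 of the 2 cumulus markers tested had an unadjusted p under 0.05, and DESeq2 called 0), and their part in the differences below was not tested. The 6 blood cell markers summed to 7.99 to 17.8 CPM in Nr5a2 KD and 5.32 to 8.95 CPM in Klf5 KD, ranges that overlap, with 3 of them at 0 in each. In bulk samples, fewer cells that express a gene and less RNA of that gene per cell cannot be told apart.

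The Klf5 transcript did not separate the groups, and the Nr5a2 transcript did. Nr5a2 (chromosome 1 from 136842571 to 136960448, GRCm38) was at 32.9, 38.9 and 24.1 CPM in the 3 Nr5a2 KD libraries and at 117, 256 and 203 CPM in the 3 Klf5 KD libraries. The lowest Klf5 KD library held about 3 times as much as the highest Nr5a2 KD library, and the mean was 32 ± 7.44 against 192 ± 69.9 CPM (SD, n = 3 each; log2 fold change 2.57, SE 0.329, adjusted p = 0.000428 by edgeR's quasi-likelihood test). Klf5 (chromosome 14 from 99298691 to 99315036) was at 151, 159 and 109 CPM in Nr5a2 KD and at 72.9, 117 and 144 CPM in Klf5 KD, where control held 444 and 467 CPM. The ranges overlap, and the means of 139.6 ± 26.5 and 111 ± 35.9 CPM (SD, n = 3 each) were 30.6% and 24.5% of the control mean. The difference between the groups had a log2 fold change of -0.34 with a 95% interval of -0.97 to 0.29 and an adjusted p of 0.522 by edgeR, so a difference in Klf5 of up to 0.97 log2 units, lower in Klf5 KD, lies within the interval. The two-sided exact permutation test gave p = 0.1 for Nr5a2, the smallest that 3 libraries against 3 allow, and p = 0.4 for Klf5. Klf5 KD replicate 1 had the lowest Klf5 of the 6 libraries and also the lowest Nr5a2 of its own group.

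**Figure D1:**
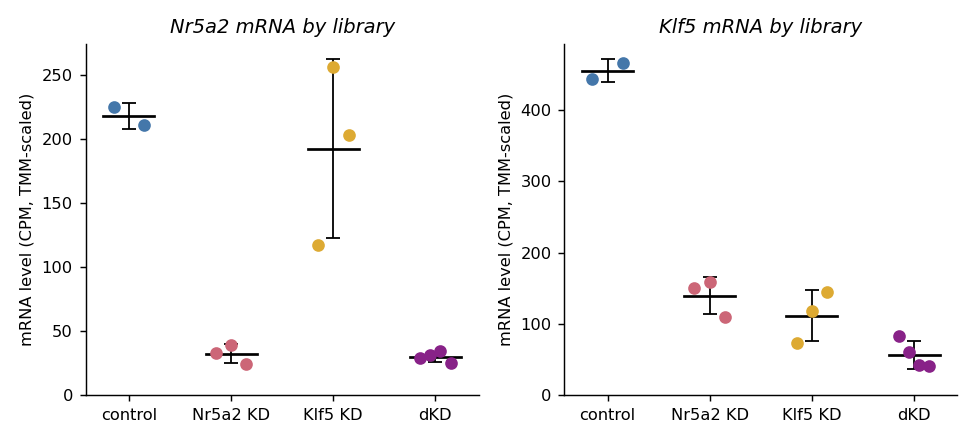
mRNA level of Nr5a2 (left) and Klf5 (right) in each library, in CPM scaled with TMM factors, for control, Nr5a2 KD, Klf5 KD and dKD. Points are libraries, horizontal bars are means and error bars are SD; for Klf5 the Klf5 KD libraries (72.9 to 144 CPM) overlap the Nr5a2 KD libraries (109 to 159 CPM), and for Nr5a2 they do not.

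Of 12668 genes tested, 738 were higher in Klf5 KD than in Nr5a2 KD (5.83%) and 710 were lower (5.60%), by edgeR with a Benjamini-Hochberg adjusted p under 0.05 and a change of at least 2-fold. All log2 fold changes below are Klf5 KD over Nr5a2 KD unless stated, and their median over all tested genes was -0.03. All 3 Klf5 KD libraries were above all 3 Nr5a2 KD libraries for 727 of the 738 genes and below for 706 of the 710, against 15.7% and 15.2% of all tested genes. The calls rest on the same 6 libraries, so these counts are no further support for them. The split between higher and lower genes moved with the scaling. It was 544 higher and 936 lower with total counts as library sizes, which shifted the median of all genes to -0.19, and 271 higher and 454 lower with ERCC counts, which shifted it to -0.15. The number of lower genes fell to 417 without Klf5 KD replicate 2 and to 453 without Nr5a2 KD replicate 2, and those of higher genes were 510 and 535.

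**Figure D2:**
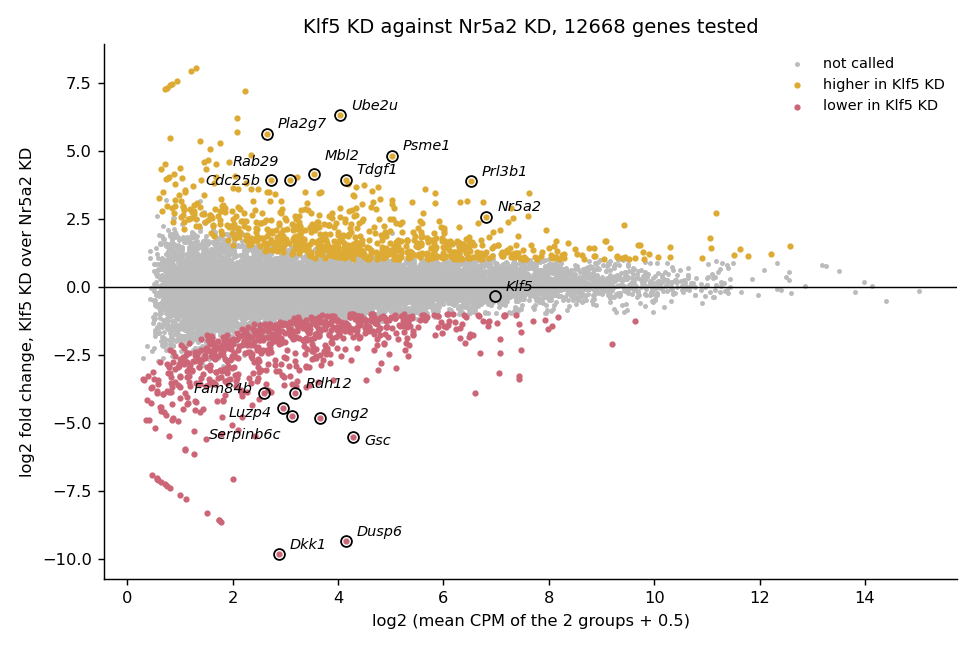
Log2 fold change of Klf5 KD over Nr5a2 KD against mean level, as log2 of the mean CPM of both groups plus 0.5, for the 12668 genes tested. Yellow points are the 738 genes higher and red points the 710 genes lower in Klf5 KD, circled genes are Nr5a2, Klf5 and the 8 named in each direction; the fitted values of Dkk1 and Dusp6 depend on a prior count, since both were at or near 0 counts in Klf5 KD.

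Among genes that reached 10 CPM in 1 of the groups, those with the largest fold changes in favour of Klf5 KD were low in Nr5a2 KD. Ube2u, a ubiquitin-conjugating enzyme, was at 0.708, 0.413 and 0 CPM in the Nr5a2 KD libraries and at 26, 32.5 and 35.7 CPM in the Klf5 KD libraries (log2 fold change 6.30, SE 0.556, adjusted p = 5.6e-05 by edgeR). Pla2g7, which inactivates platelet-activating factor, was at 0, 0.551 and 0.126 CPM and at 19, 5.14 and 9.69 CPM (log2 fold change 5.62, SE 0.784, adjusted p = 0.000792 by edgeR). In both genes every Klf5 KD library lay above every Nr5a2 KD library. Psme1, a subunit of the PA28 activator of the proteasome, was at 2.83, 0.964 and 2.64 CPM in Nr5a2 KD and at 107, 44.4 and 34.7 CPM in Klf5 KD (log2 fold change 4.82, SE 0.503, adjusted p = 0.000135 by edgeR). Tdgf1 encodes Cripto, the co-receptor for Nodal, and was at 3.18, 1.1 and 1.88 against 50.3, 19.7 and 26.7 CPM (log2 fold change 3.93, SE 0.466, adjusted p = 0.000272 by edgeR). Prl3b1, a placental lactogen of the prolactin family, was at 12.7, 14.3 and 7.41 CPM in Nr5a2 KD and 232, 125 and 155 CPM in Klf5 KD (log2 fold change 3.88, SE 0.35, adjusted p = 5.6e-05 by edgeR). Again the groups did not overlap. The other 3 genes of this kind were Mbl2, a mannose-binding lectin (log2 fold change 4.14), Cdc25b, a phosphatase that activates cyclin-dependent kinases (3.92), and Rab29, a small GTPase (3.91), with adjusted p values of 0.000703, 0.00251 and 0.00196 by edgeR. In control, 6 of these 8 genes were at levels overlapping those of Klf5 KD or within its range, as with Ube2u at 29.1 and 20.4 CPM and Prl3b1 at 91.1 and 139 CPM.

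The NR5A consensus letters were looked for in the 250 bases before the RefSeq start of the called genes named here, in windows of GRCm38.p6. The letters searched were CAAGGTCA and CAAGGCCA on either strand. A window was found for 104 of the 124 genes, and the letters stood in 3 of the 45 higher in Klf5 KD with a window and in 0 of the 59 lower, where 3.76% of the 27025 gene symbols in the table have them in at least 1 window. A gene can have several windows, and 3.28% of all 32851 windows hold the letters. The 3 sequences are shown, since Prl3b1, Khdc3 (a maternal factor of the oocyte cortex) and Psap (a precursor of lysosomal activator proteins) are described by their levels here, and each is written 5′ to 3′ on the strand of the gene with the matching letters in capitals. All 3 genes lie on the plus strand, with the windows at chr13:27242180-27242429 for Prl3b1, chr9:73102148-73102397 for Khdc3 and chr10:60277378-60277627 for Psap. In the annotation behind the counts Prl3b1 and Khdc3 start further upstream, at 27241847 and 73101836, so their windows lie inside those gene spans. The matches begin 55, 208 and 149 bases before the start and read TGACCTTG, TGGCCTTG and TGACCTTG, which is the consensus on the opposite strand. The KLF letters GGGTGTGG and GGGCGTGG, on either strand, stood in 13 of the 45 higher and 7 of the 59 lower genes, where 8.81% of the symbols have them. The GATA letters AGATAA, on either strand, stood in 3 of the higher and 3 of the lower genes, where 11.4% of the symbols have them. The percentages cover all symbols in the table and not the genes tested here, so they are no matched background. The genes were named for their values and lists, so the shares were not tested. A match is a string of letters and not a binding site.
Prl3b1: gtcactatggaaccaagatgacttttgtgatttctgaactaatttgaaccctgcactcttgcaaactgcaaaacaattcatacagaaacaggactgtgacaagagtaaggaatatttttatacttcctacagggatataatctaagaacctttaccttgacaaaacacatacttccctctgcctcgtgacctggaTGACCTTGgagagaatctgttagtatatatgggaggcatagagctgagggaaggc
Khdc3: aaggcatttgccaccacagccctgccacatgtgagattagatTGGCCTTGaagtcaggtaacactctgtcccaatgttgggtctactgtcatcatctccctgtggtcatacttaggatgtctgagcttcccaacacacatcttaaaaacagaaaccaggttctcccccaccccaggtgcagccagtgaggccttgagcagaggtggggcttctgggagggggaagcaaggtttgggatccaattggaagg
Psap: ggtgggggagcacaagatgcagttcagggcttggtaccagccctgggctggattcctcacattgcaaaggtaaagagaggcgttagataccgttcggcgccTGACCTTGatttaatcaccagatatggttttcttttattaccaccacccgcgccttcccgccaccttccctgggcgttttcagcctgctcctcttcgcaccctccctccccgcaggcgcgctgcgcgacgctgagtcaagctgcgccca

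The largest fold changes in the other direction, by the same minimum of 10 CPM, included regulators of signalling that were at or near 0 in Klf5 KD. Dkk1, a secreted inhibitor of Wnt signalling, was at 9.79, 9.37 and 21.7 CPM in the Nr5a2 KD libraries and had 0 counts in all 3 Klf5 KD libraries, against 324 counts over the Nr5a2 KD group. With a floor of 3 counts over the Klf5 KD group, it was at least 120.3-fold lower there (adjusted p = 0.000135 by edgeR). Control held 0.505 and 0 CPM, near the level of Klf5 KD. Dusp6, a phosphatase that inactivates ERK and is induced by it, was at 33.6, 42.8 and 26.6 CPM in Nr5a2 KD and had 1 count in all of Klf5 KD against 808, a ratio of 899.9 with a 95% counting interval of 161 to 35586 (adjusted p = 3.52e-06 by edgeR). Gsc, a homeobox gene of the gastrula organizer, was at 39.1, 40.5 and 32.4 CPM in Nr5a2 KD and at 0.72, 0.945 and 0.734 CPM in Klf5 KD (log2 fold change -5.54, SE 0.368, adjusted p = 3.52e-06 by edgeR). In each of these 3 genes the lowest Nr5a2 KD library was above the highest Klf5 KD library. Gng2, a gamma subunit of heterotrimeric G proteins, was at 21.2, 33.5 and 14.9 CPM and at 0.72, 0.236 and 1.61 CPM (log2 fold change -4.82, SE 0.548, adjusted p = 0.000221 by edgeR). Rdh12, a retinol dehydrogenase, was at 11.1, 11.8 and 25.6 against 2.07, 0.118 and 0.881 CPM (log2 fold change -3.91, SE 0.632, adjusted p = 0.00165 by edgeR), with control at 1.52 and 0.537 CPM, within the range of Klf5 KD. Serpinb6c, a serpin, was at 27.1, 3.58 and 17.5 CPM in Nr5a2 KD, a wide spread, and at 1.44, 0.118 and 0 CPM in Klf5 KD (log2 fold change -4.74, SE 0.866, adjusted p = 0.00329 by edgeR). Luzp4 (-4.44) and Fam84b (-3.92) complete the 8, with adjusted p values of 0.00157 and 0.00309 by edgeR. All 16 of these calls, 8 in each direction, held in each alternative fit that kept the gene and with each library left out. A gene dropped by the filter of an alternative was not tested there.

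Levels in control place these genes. Of the 738 genes higher in Klf5 KD, 412 had a mean at least 1 log2 unit from control in Nr5a2 KD and within 0.5 in Klf5 KD, 17 had the reverse, and 157 were at least 0.5 from control in opposite directions. Of the 710 lower genes these numbers were 260, 64 and 266. Over all 12668 tested genes they were 1237, 315 and 539. These classes rest on group means and were not tested. For 176 of the 738 higher genes both control libraries lay between the groups with no overlap, above all Nr5a2 KD and below all Klf5 KD libraries, an order that 2.27% of all tested genes had. For 166 of the 710 lower genes the order was the reverse, which 1.88% of all tested genes had. These percentages are over all tested genes, including those whose knockdown groups overlap and cannot have this order. Counts of this order rest on 2 control libraries: leaving out control replicate 1 gave 270 and 284, leaving out control replicate 2 gave 283 and 293, and leaving out Klf5 KD replicate 3 gave 273 and 255. With total counts as library sizes the first was 107, and with ERCC counts the second was 63.

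Among the genes below control in Nr5a2 KD and above it in Klf5 KD, those with the widest steps included Mbl2, Pla2g10, Crip2 and BC048679. Pla2g10, a secreted phospholipase, was at 3.18, 2.62 and 3.27 CPM in Nr5a2 KD, at 16.5 and 17 CPM in control and at 61.4, 29.8 and 32 CPM in Klf5 KD (log2 fold change 3.74, SE 0.374, adjusted p = 0.000133 by edgeR). Crip2, a LIM domain protein, was at 21.7, 17.1 and 13.2 CPM in Nr5a2 KD, 64.9 and 61.5 CPM in control and 250.3, 130.2 and 89 CPM in Klf5 KD (log2 fold change 3.16, SE 0.382, adjusted p = 0.000283 by edgeR). In both genes Klf5 KD replicate 1 was the highest of all libraries. Mbl2 was at 2.12, 1.24 and 0.126 CPM in Nr5a2 KD, 6.67 and 7.11 CPM in control and 23.9, 24.4 and 15 CPM in Klf5 KD. BC048679 had a log2 fold change of 2.48 (adjusted p = 0.00141 by edgeR). Against control itself, edgeR gave log2 fold changes for Pla2g10 of -2.44 (adjusted p = 0.00201) in Nr5a2 KD and 1.31 (adjusted p = 0.412) in Klf5 KD, and for Crip2 of -1.84 (adjusted p = 0.00156) and 1.33 (adjusted p = 0.474), where both comparisons share the 2 control libraries. Neither difference between Klf5 KD and control passed the test.

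The 5 genes with the widest steps in the reverse order were Dusp6, Calm5, Gsc, Rgs19 and Luzp4. Calm5, a calmodulin-related gene, was at 207, 202 and 133 CPM in Nr5a2 KD, 38.3 and 51.5 CPM in control and 9.8, 13.1 and 13.9 CPM in Klf5 KD (log2 fold change -3.90, SE 0.306, adjusted p = 1.87e-05 by edgeR). Dusp6 was at 3.94 and 2.55 CPM in control, below the 26.6 to 42.8 CPM of Nr5a2 KD and above the single count of Klf5 KD. Gsc was at 3.94 and 3.76 CPM in control, where Nr5a2 KD held 32.4 to 40.5 CPM and Klf5 KD 0.72 to 0.945 CPM. Rgs19, which speeds the inactivation of G protein alpha subunits, was at 25.1, 25.2 and 29.4 CPM in Nr5a2 KD, 12.4 and 7.38 CPM in control and 3.06, 2.72 and 1.47 CPM in Klf5 KD (log2 fold change -3.44, SE 0.363, adjusted p = 0.000135 by edgeR). Against control, the log2 fold changes of Gsc were 3.30 (adjusted p = 0.000321) in Nr5a2 KD and -2.24 (adjusted p = 0.406) in Klf5 KD, and those of Calm5 were 2.03 (adjusted p = 0.00146) and -1.87 (adjusted p = 0.0996) by edgeR, with the control libraries shared. In Klf5 KD against control, with 3 and 2 libraries, edgeR called 0 of the 12838 genes tested (0.00%) and so none of the 136 named genes among them, with 1088 and 47 at an unadjusted p under 0.05. Klf5 itself had an adjusted p of 0.0996 there, below which no named gene lay, although its libraries do not overlap between these groups.

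**Figure D3:**
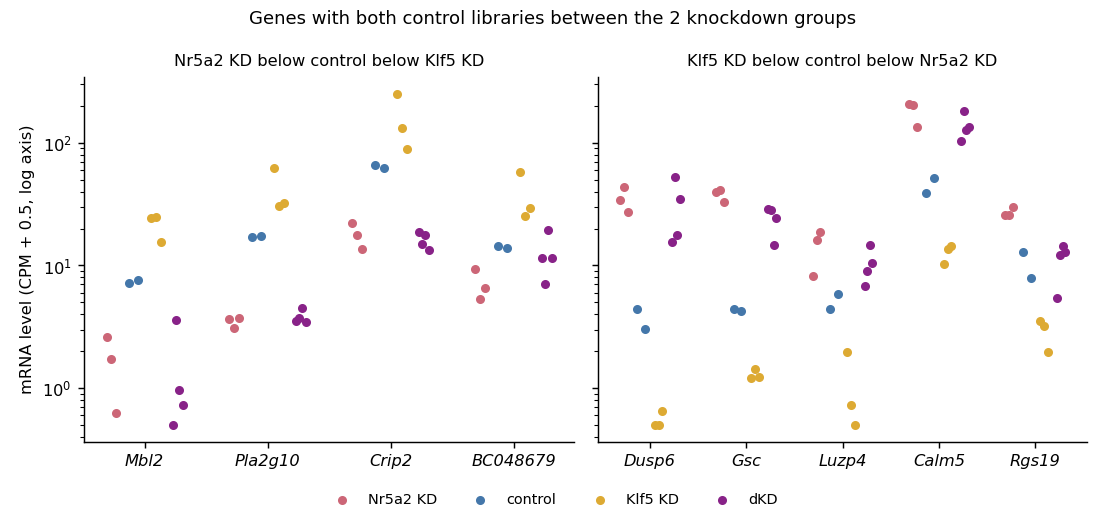
mRNA level, as CPM plus 0.5 on a log axis, of 9 genes whose 2 control libraries lie between the knockdown groups; points are single libraries of Nr5a2 KD, control, Klf5 KD and dKD. Among Nr5a2 KD, control and Klf5 KD, on the left Nr5a2 KD is lowest and Klf5 KD highest, and on the right the order is reversed. The dKD libraries of Dusp6, Gsc and Calm5 lie above control.

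In a smaller set of called genes the mean log2 CPM differed from control by at least 1 in Klf5 KD and by at most 0.5 in Nr5a2 KD. Klf11, a Krüppel-like factor that represses transcription, was at 8.96, 11.8 and 15.3 CPM in Nr5a2 KD, 14.1 and 14.6 CPM in control and 3.42, 3.43 and 1.91 CPM in Klf5 KD (log2 fold change -2.04, SE 0.403, adjusted p = 0.00511 by edgeR). Shisal2b was at 174, 132 and 102 CPM, 90.6 and 109 CPM and 20.6, 26.8 and 49.9 CPM in the same order (log2 fold change -2.09, SE 0.347, adjusted p = 0.00188 by edgeR). Slc1a7, a glutamate transporter, was at 10.4, 8.95 and 12.4 CPM, 9.7 and 6.44 CPM and 1.8, 2.89 and 4.26 CPM (log2 fold change -1.87, SE 0.419, adjusted p = 0.0105 by edgeR). In these 3 genes every Klf5 KD library was below every library of the other groups, dKD included, and their calls held with each library left out. A call is named as lost below where an alternative fit, other than that with the replicate number as a block, no longer passed it, with the log2 fold change of that fit in brackets. G2e3, a ubiquitin ligase (-1.87), and Btg4, an adaptor of maternal mRNA decay (-2.10), were also lower in Klf5 KD. The call on G2e3 was lost without any 1 of Klf5 KD replicate 2 and Nr5a2 KD replicate 2 (-1.68 to -1.77). That on Btg4 was lost with the mitochondrial share in the model (-1.48) and without any 1 of Klf5 KD replicates 1 and 2 and Nr5a2 KD replicate 2 (-0.98 to -2.18). Higher in Klf5 KD were, among others, Akr1b8, an aldo-keto reductase (2.38), Mgll, which breaks down monoacylglycerols (1.73), Laptm4b, a lysosomal membrane protein (1.45), and Agtrap, which binds the angiotensin receptor (1.42). Akr1b8 was at 2.95, 3.31 and 10 CPM in Nr5a2 KD, 10.2 and 4.16 CPM in control and 65.1, 14.6 and 5.58 CPM in Klf5 KD. Its lowest Klf5 KD library lay between the control libraries and within the Nr5a2 KD range. None of these 4 calls held with each library left out. That on Akr1b8 was lost with ERCC library sizes (2.23), total counts (2.15), DESeq2 (2.42), the stricter filter (2.35) and all 12 libraries in 1 fit (2.39) and without any 1 of Klf5 KD replicates 1 and 2 and Nr5a2 KD replicates 1 and 2 (0.89 to 2.75). Mgll lost its call with ERCC library sizes (1.71) and without any 1 of Klf5 KD replicate 1 and Nr5a2 KD replicates 2 and 3 (1.09 to 1.58). Laptm4b lost its call with ERCC library sizes (1.36) and without any 1 of Klf5 KD replicates 1 and 2 and Nr5a2 KD replicates 2 and 3 (1.13 to 1.42). Agtrap lost its call with ERCC library sizes (1.33) and without any 1 of Klf5 KD replicate 1 and Nr5a2 KD replicates 1 and 2 (1.02 to 1.41). Klf5 KD replicate 1 held the highest level in all 4.

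The double knockdown against control shares no library with the comparison of the single knockdowns. In dKD, where both transcripts are targeted, the calls against control by edgeR covered 3.85% of 13724 genes on the lower side and 3.38% on the higher side. Of the 738 genes higher in Klf5 KD than in Nr5a2 KD, 332 (45.0%) were called lower in dKD, which is 62.8% of the 529 genes lower in dKD, and 0 were called higher. At an unadjusted p under 0.05, 1 of them was higher in dKD, and DESeq2 called 0. Of the 710 genes lower in Klf5 KD, 218 (30.7%) were called higher in dKD, which is 47.0% of the 464 genes higher in dKD. The median log2 fold change of dKD over control was -1.22 for the 718 of the higher genes tested there and 1.15 for the 687 of the lower genes, against 0.05 for all genes tested in both comparisons. These overlaps depend on both control libraries, since leaving out control replicate 1 gave 79 and 29 genes and leaving out control replicate 2 gave 88 and 43. With ERCC counts as library sizes they were 100 and 299 genes, with total counts 254 and 283, and 438 and 346 when genes with low counts were kept. Of the lower genes 2 were also lower in dKD, and both are named after their values were seen. Isl2, a LIM homeobox gene, was at 5.54, 5.1 and 4.27 CPM in Nr5a2 KD, 2.25, 1.42 and 0.587 CPM in Klf5 KD, 11.2 and 7.92 CPM in control and 1.77, 3.55, 1.77 and 0.472 CPM in dKD. Kdelr3, a receptor that returns proteins to the endoplasmic reticulum, was at 7.55, 10.3 and 9.42, 1.98, 3.07 and 5.14, 15.2 and 27.5 and 5.82, 5.03, 3.72 and 5.25 CPM in the same order. In both genes every library of the 3 knockdown groups lay below both control libraries.

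Single genes differed in where dKD fell. Prl3b1 was at 34.6, 24.7, 9.09 and 11.8 CPM in dKD (log2 fold change -2.49, adjusted p = 0.00645 over control by edgeR), below both control libraries. Gsc was at 28.6, 27.9, 14.1 and 23.9 CPM in dKD (log2 fold change 2.65, adjusted p = 0.00284) and Calm5 at 103, 179.5, 126 and 134 CPM (log2 fold change 1.63, adjusted p = 0.00597), above control as in Nr5a2 KD. Rgs19 was at 4.93, 11.8, 13.8 and 12.3 CPM in dKD (log2 fold change 0.16, adjusted p = 0.861), overlapping control, where Nr5a2 KD was higher. Gng2 at 5.18, 9.08, 8.15 and 3.78 CPM (log2 fold change -0.37, adjusted p = 0.635) also did not pass the test in dKD. BC048679 was at 11, 6.52, 18.8 and 11 CPM in dKD against 13.9 and 13.3 CPM in control (log2 fold change -0.15, adjusted p = 0.851).

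**Figure D4:**
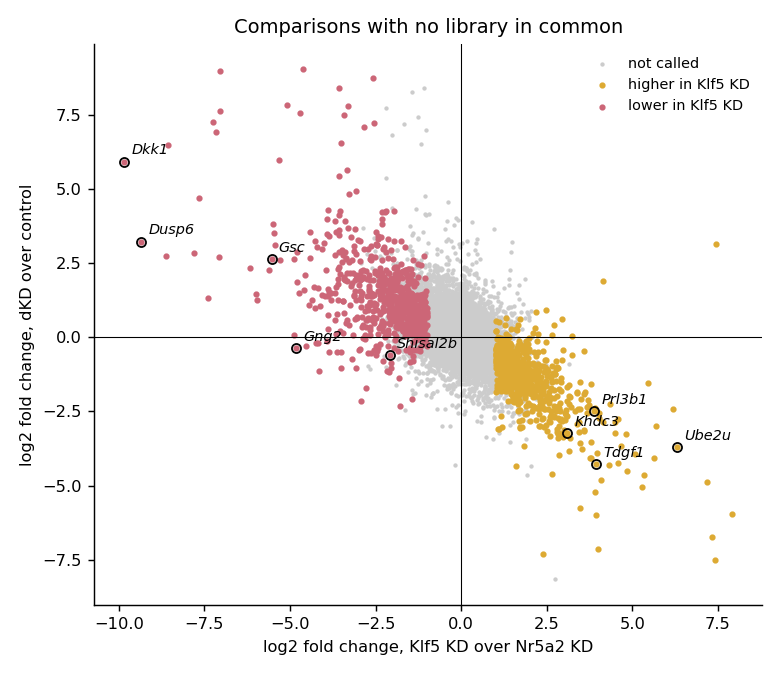
Log2 fold change of dKD over control against that of Klf5 KD over Nr5a2 KD, 2 comparisons with no library in common, for genes tested in both. Yellow points are higher and red points lower in Klf5 KD than in Nr5a2 KD; the yellow points lie mostly below 0 on the vertical axis (median -1.22) and the red points mostly above it (median 1.15).

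Gene groups were then read for the difference between the knockdowns. The 36 lists hold 1003 genes, of which 783 were tested, 45 were higher and 55 were lower in Klf5 KD. Where a list is described, its counts stand beside the background of 5.83% higher and 5.60% lower and its median beside that of all genes, -0.03.

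**Figure D5:**
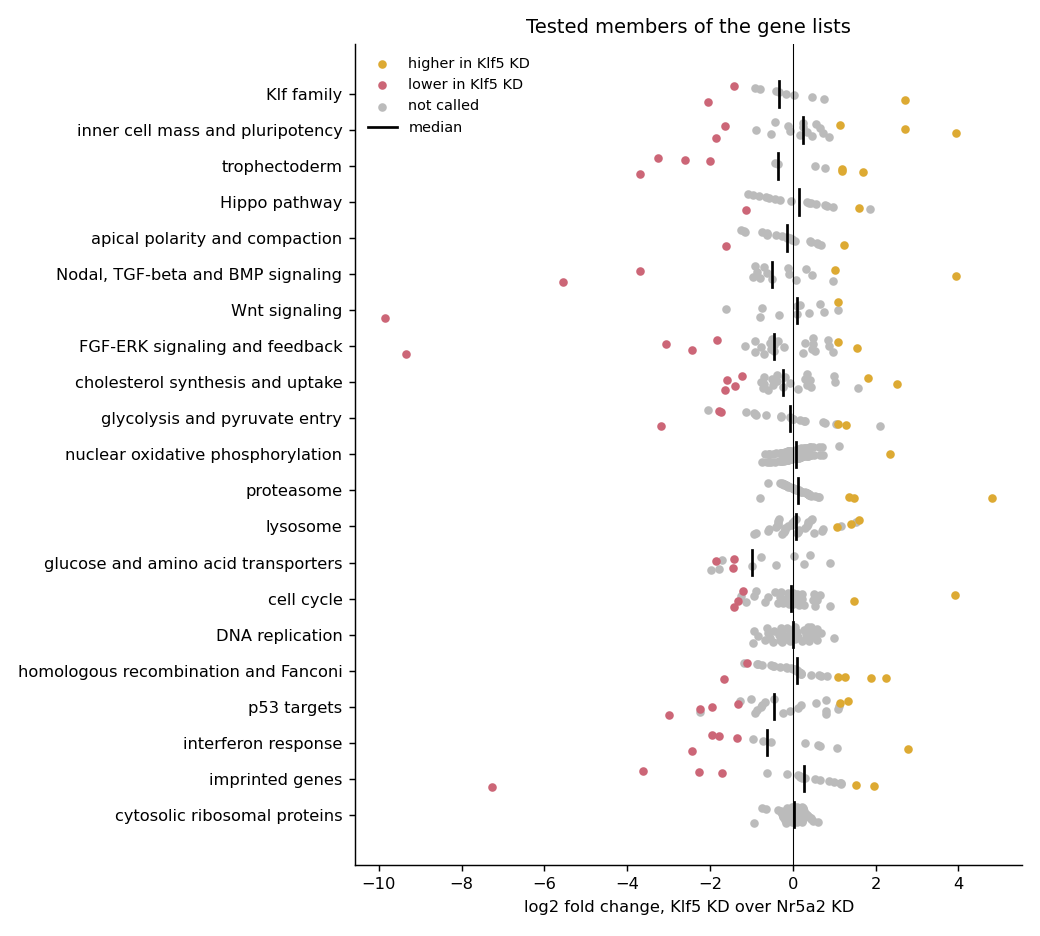
Log2 fold change of Klf5 KD over Nr5a2 KD for the tested members of 21 gene lists, 1 point per gene and a black bar at the median. Yellow points are genes called higher and red points genes called lower in Klf5 KD; ribosomal protein and DNA replication genes stay within 1 log2 unit of 0, and Dkk1, Dusp6 and Rasgrf1, fitted values with at most 1 count in Klf5 KD, lie farthest to the left.

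Of the 17 genes of the Krüppel-like family, 11 were tested, 1 was higher and 2 were lower in Klf5 KD, with a median of -0.34. Klf4, a factor of the pluripotent state, was at 20.4, 11.8 and 5.9 CPM in Nr5a2 KD and at 58.4, 106 and 90 CPM in Klf5 KD (log2 fold change 2.72, SE 0.401, adjusted p = 0.00115 by edgeR). All 3 Klf5 KD libraries were above the Nr5a2 KD libraries, and control held 46.7 and 66.2 CPM. Klf3, a repressor, was at 23.1, 41.9 and 26.2 CPM in Nr5a2 KD and at 11.2, 9.8 and 13.5 CPM in Klf5 KD, with 38.6 and 33.5 CPM in control (log2 fold change -1.42, SE 0.318, adjusted p = 0.0105 by edgeR). Klf11, described above, was lower too. The call on Klf3 was lost with ERCC library sizes (-1.52) and without any 1 of Klf5 KD replicate 2 and Nr5a2 KD replicate 2 (-1.11 to -1.29). Nr5a2 was the 1 nuclear receptor called of 16 tested, out of 36 listed (median -0.01). The 26 genes listed as NR5A targets in other tissues had 7 tested members, of which Apoa1, an apolipoprotein, and Fasn, the fatty acid synthase, were lower in Klf5 KD. Fasn was at 46.1, 60.6 and 63.7 CPM in Nr5a2 KD and at 13.6, 27.4 and 13.1 CPM in Klf5 KD (log2 fold change -1.67, SE 0.325, adjusted p = 0.00459 by edgeR), and Apoa1 at 10.7, 6.06 and 12.6 and 0.9, 0.118 and 0.587 CPM (log2 fold change -4.13, SE 0.596, adjusted p = 0.000996 by edgeR). In both, every Nr5a2 KD library was above every Klf5 KD library, and control held 18.3 and 19.7 CPM of Fasn and 0.758 and 1.61 CPM of Apoa1. The median of that list was 0.09.

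Inner cell mass and pluripotency genes were split, with 3 higher and 2 lower in Klf5 KD among 19 tested of 20 (median 0.25). Higher were Tdgf1 and Klf4, given above, and Dppa5a, an RNA-binding protein of the pluripotent state, at 2681, 2022 and 1805 CPM in Nr5a2 KD and 5093, 4346 and 5064 CPM in Klf5 KD (log2 fold change 1.14, SE 0.247, adjusted p = 0.00842 by edgeR). Prdm14, a regulator of naive pluripotency, was at 13.8, 10.2 and 17 CPM in Nr5a2 KD, 3.87, 3.43 and 4.11 CPM in Klf5 KD and 18.9 and 13.1 CPM in control (log2 fold change -1.86, SE 0.362, adjusted p = 0.00469 by edgeR). Its Klf5 KD libraries were lower than those of all other groups. Utf1, a chromatin factor of embryonic stem cells, was at 10.1, 10.1 and 19.5 CPM in Nr5a2 KD and 4.32, 5.32 and 3.23 CPM in Klf5 KD, with 6.06 and 3.49 CPM in control (log2 fold change -1.64, SE 0.397, adjusted p = 0.0158 by edgeR). The call on Dppa5a was lost with ERCC library sizes (1.04) and total counts (0.99) and without Nr5a2 KD replicate 2 (1.09). That on Utf1 was lost with ERCC library sizes (-1.85) and without Nr5a2 KD replicate 3 (-1.23).

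The trophectoderm list held the largest share of called members among the lists of lineage genes, 3 higher and 4 lower of 11 tested (20 listed, median -0.35). The keratins Krt8 and Krt18, intermediate filaments of the trophectoderm, were lower in Klf5 KD. Krt8 was at 18.2, 8.54 and 12.3 CPM in Nr5a2 KD, 0.72, 3.07 and 0.294 CPM in Klf5 KD and 2.88 and 2.82 CPM in control (log2 fold change -3.25, SE 0.62, adjusted p = 0.00422 by edgeR). Krt18 was at 11.2, 7.16 and 14.6 CPM and 2.25, 1.3 and 4.84 CPM in the 2 knockdowns, with 0.455 and 2.95 CPM in control (log2 fold change -2.01, SE 0.492, adjusted p = 0.0165 by edgeR). Both were above control in every Nr5a2 KD library. Id2, an inhibitor of basic helix-loop-helix factors, was at 19.5, 14.2 and 21.6 CPM in Nr5a2 KD, 1.44, 0.591 and 2.35 CPM in Klf5 KD and 0.455 and 1.48 CPM in control (log2 fold change -3.69, SE 0.463, adjusted p = 0.00038 by edgeR), and Lgals3, a galectin, at 17.8, 15 and 24.6, 4.32, 2.01 and 3.08 and 6.37 and 5.64 CPM (log2 fold change -2.61, SE 0.389, adjusted p = 0.00117 by edgeR). The transcription factors Hand1 and Tfap2c were higher in Klf5 KD. Hand1 was at 5.19, 9.78 and 5.65 CPM in Nr5a2 KD, 24.1, 19.1 and 23.9 CPM in Klf5 KD and 43.3 and 49.2 CPM in control (log2 fold change 1.69, SE 0.342, adjusted p = 0.00579 by edgeR), so both knockdowns lay below control and Nr5a2 KD was the lower. Tfap2c was at 26.5, 37.1 and 28.4 and 59.3, 92.2 and 61.9 CPM with 64.9 and 59.3 CPM in control (log2 fold change 1.20, SE 0.278, adjusted p = 0.0127 by edgeR). Dab2, an endocytic adaptor, was also higher in Klf5 KD (log2 fold change 1.19). The call on Krt18 was lost without any 1 of Klf5 KD replicates 1 and 2 and Nr5a2 KD replicate 3 (-1.65 to -1.87). That on Hand1 was lost with ERCC library sizes (1.62) and all 12 libraries in 1 fit (1.71). That on Tfap2c was lost with ERCC library sizes (1.13) and without any 1 of Klf5 KD replicate 2 and Nr5a2 KD replicate 1 (1.0 to 1.10). That on Dab2 was lost with ERCC library sizes (1.13) and without any 1 of Nr5a2 KD replicates 2 and 3 (1.08 to 1.15).

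Of 17 primitive endoderm and GATA genes, 7 were tested, with 1 higher and 1 lower (median -0.42). Gata1 was at 10.1, 13.8 and 12.2 CPM in Nr5a2 KD and 33, 41.7 and 26.3 CPM in Klf5 KD, with 41.4 and 35.2 CPM in control (log2 fold change 1.47, SE 0.296, adjusted p = 0.00557 by edgeR). Pdgfra, a growth factor receptor of the primitive endoderm, was at 18.1, 9.51 and 18.3 CPM in Nr5a2 KD, 1.8, 3.43 and 0.881 CPM in Klf5 KD and 6.82 and 5.5 CPM in control (log2 fold change -2.91, SE 0.481, adjusted p = 0.00185 by edgeR). Gata6 was at 135, 138 and 93.2 and 142, 216 and 214 CPM and Gata4 at 10.3, 15.3 and 6.91 and 5.76, 8.98 and 12.2 CPM, with adjusted p values of 0.16 and 0.712 by edgeR. Among 12 regulators of X inactivation, 11 were tested and Gata1 was the 1 called (median 0.24). Xist, the RNA that coats the inactive X chromosome, was at 92.1, 74.2 and 59.4 CPM in Nr5a2 KD and 262, 175 and 68.6 CPM in Klf5 KD. Its counts were not whole in 11 of the 12 libraries, so they include reads shared with overlapping genes. Of the 3 Klf5 KD libraries 2 were well above all Nr5a2 KD libraries and 1 lay among them, and the difference did not pass (log2 fold change 1.15, SE 0.387, adjusted p = 0.0686 by edgeR). It passed with DESeq2, with no filter and without Klf5 KD replicate 3 (log2 fold change 1.53). Without that library, the Y-linked genes Eif2s3y (-1.54) and Ddx3y (-1.56) passed as lower in Klf5 KD, against -0.78 and -0.52 with all libraries, where they did not pass. The 10 Y-linked genes summed to 65 to 95.2 CPM in Nr5a2 KD and 23.7 to 106 CPM in Klf5 KD, where, with all libraries, 0 of the 5 tested were called by edgeR and by DESeq2 and 1 had an unadjusted p under 0.05. The pools mix embryos of both sexes in numbers that are not known. The call on Gata1 was lost with ERCC library sizes (1.40).

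Hippo signalling reads cell position. Of 20 Hippo genes, 18 were tested, 1 was higher and 1 was lower (median 0.16). Lats2, the kinase that inactivates YAP, was at 8.73, 9.64 and 6.47 CPM in Nr5a2 KD and 15.5, 24.8 and 36.2 CPM in Klf5 KD (log2 fold change 1.60, SE 0.359, adjusted p = 0.0106 by edgeR). Every Klf5 KD library was above every Nr5a2 KD library and below both control libraries, at 40.4 and 39.4 CPM. Amot, which holds YAP outside the nucleus, was at 47.6, 49.5 and 40.4 CPM in Nr5a2 KD and 17.2, 23.9 and 22.3 CPM in Klf5 KD (log2 fold change -1.14, SE 0.265, adjusted p = 0.0128 by edgeR). Of 23 polarity and compaction genes, 22 were tested, and the 2 atypical protein kinases C were called in opposite directions (median -0.14). Prkcz was at 27.9, 28.2 and 15.4 CPM in Nr5a2 KD and 44.8, 47.2 and 78.2 CPM in Klf5 KD (log2 fold change 1.23, SE 0.32, adjusted p = 0.0219 by edgeR), and Prkci at 6.49, 7.44 and 10.4 and 1.98, 3.54 and 2.5 CPM (log2 fold change -1.62, SE 0.429, adjusted p = 0.024 by edgeR). Of 23 genes of cavitation, junctions and water channels, 18 were tested and 1 was higher, Marveld2, a tricellular junction protein (log2 fold change 2.02, median of the list -0.11). The call on Lats2 was lost with ERCC library sizes (1.44). That on Amot was lost with ERCC library sizes (-1.24) and without any 1 of Klf5 KD replicate 1 and Nr5a2 KD replicates 1 and 2 (-1.0 to -1.11). That on Prkcz was lost with ERCC library sizes (1.12) and without any 1 of Klf5 KD replicate 3 and Nr5a2 KD replicates 1 and 3 (0.94 to 1.36). That on Prkci was lost with ERCC library sizes (-1.81) and without any 1 of Klf5 KD replicates 1 and 3 and Nr5a2 KD replicates 2 and 3 (-1.39 to -1.67). That on Marveld2 was lost with ERCC library sizes (2.11) and without any 1 of Klf5 KD replicates 1 and 2 and Nr5a2 KD replicates 1 and 3 (1.71 to 2.17).

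Called members of FGF and ERK signalling lay both upstream of ERK and among its induced genes. Of 30 genes of FGF and ERK signalling, 27 were tested, 2 were higher and 4 were lower in Klf5 KD, with a median of -0.46. Lower were Dusp6, given above, Etv5, a transcription factor induced by ERK, Spry1, an inhibitor of receptor tyrosine kinase signalling, and Fos, an immediate early gene. Etv5 was at 10.3, 10.5 and 7.66 CPM in Nr5a2 KD, 0.72, 3.07 and 4.4 CPM in Klf5 KD and 4.85 and 6.31 CPM in control (log2 fold change -1.84, SE 0.533, adjusted p = 0.0362 by edgeR). Spry1 was at 2.36, 4.68 and 1.51 CPM and 0.63, 0.472 and 0.44 CPM, and Fos at 1.53, 5.51 and 3.01 CPM and 0.72, 0.354 and 0 CPM, low levels in all 6 libraries. Higher in Klf5 KD were 2 members upstream of ERK, Sos1, which activates Ras, and Map2k1, which phosphorylates ERK. Sos1 was at 49.1, 41.6 and 33.4 CPM in Nr5a2 KD and 70.3, 142 and 155 CPM in Klf5 KD (log2 fold change 1.55, SE 0.319, adjusted p = 0.00623 by edgeR), and Map2k1 at 38.3, 32.4 and 38.6 and 71.3, 85.5 and 77.7 CPM (log2 fold change 1.09, SE 0.246, adjusted p = 0.0112 by edgeR). Of these 6 calls, that on Dusp6 held throughout. Etv5 lost its call without any 1 of Klf5 KD replicates 1 and 2 and Nr5a2 KD replicates 1 and 2 (-1.35 to -1.95). Fos lost its call with all 12 libraries in 1 fit (-3.06) and without any 1 of Klf5 KD replicates 2 and 3 and Nr5a2 KD replicates 2 and 3 (-2.53 to -3.13). Spry1 lost its call with ERCC library sizes (-2.38), all 12 libraries in 1 fit (-2.41) and the mitochondrial share in the model (-2.14) and without any 1 of Klf5 KD replicates 1, 2 and 3 and Nr5a2 KD replicates 1 and 2 (-1.88 to -2.60). The call on Sos1 was lost with ERCC library sizes (1.41). That on Map2k1 was lost with ERCC library sizes (0.93) and total counts (0.92) and without Nr5a2 KD replicate 2 (1.01).

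Of 29 genes of Nodal, TGF-beta and BMP signalling, 17 were tested, 2 were higher and 2 were lower (median -0.50). Higher were Tdgf1 and Bmpr1a, a BMP receptor at 34.1, 34.4 and 32.2 CPM in Nr5a2 KD and 42.6, 91.8 and 73.8 CPM in Klf5 KD, and lower were Gsc and Id2. Of 30 Wnt genes, 13 were tested, Dkk1 was lower and Gsk3b, a kinase of the beta-catenin destruction complex, was higher at 46.3, 60.2 and 58 CPM against 17.9, 29.2 and 29.5 CPM (median 0.10). The call on Bmpr1a was lost with ERCC library sizes (0.90), total counts (0.88) and the stricter filter (0.99) and without any 1 of Klf5 KD replicates 2 and 3 and Nr5a2 KD replicates 1, 2 and 3 (0.80 to 1.05). That on Gsk3b was lost with ERCC library sizes (0.91) and total counts (0.91) and without any 1 of Klf5 KD replicate 2 and Nr5a2 KD replicates 1 and 2 (0.88 to 1.20). Of 22 stress MAP kinase genes, 16 were tested, 2 were higher and 4 were lower (median -0.16). Mapk9, the kinase JNK2, was at 3.54, 5.92 and 3.77 CPM in Nr5a2 KD and 12.6, 13.1 and 12.3 CPM in Klf5 KD (log2 fold change 1.51, SE 0.362, adjusted p = 0.015 by edgeR), and Atf2, a factor it phosphorylates, was at 30.7, 37.9 and 25.7 and 45.2, 78.6 and 116 CPM. Lower in Klf5 KD were Jun, with 46.5 counts in all of Nr5a2 KD and 2 in Klf5 KD (a ratio of 25.9 with a 95% counting interval of 6.7 to 218), Map3k1 (-2.50), Dusp1 (-2.41) and Mapk13 (-1.17). None of these 6 calls held with each library left out. Mapk9 lost its call with ERCC library sizes (1.45) and without Nr5a2 KD replicate 1 (1.37). Atf2 lost its call with ERCC library sizes (1.16) and without any 1 of Klf5 KD replicates 2 and 3 and Nr5a2 KD replicates 1 and 3 (0.97 to 1.36). Jun lost its call without any 1 of Klf5 KD replicates 1 and 2 and Nr5a2 KD replicate 2 (-3.73 to -3.88). Map3k1 lost its call with ERCC library sizes (-2.52) and without any 1 of Klf5 KD replicates 2 and 3 and Nr5a2 KD replicates 2 and 3 (-2.07 to -2.60). Dusp1 lost its call without any 1 of Klf5 KD replicates 1 and 2 and Nr5a2 KD replicates 1, 2 and 3 (-1.90 to -2.54). Mapk13 lost its call with ERCC library sizes (-1.43) and all 12 libraries in 1 fit (-1.16) and without any 1 of Klf5 KD replicates 1, 2 and 3 and Nr5a2 KD replicates 1 and 3 (-0.73 to -1.30).

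Cholesterol synthesis genes differed in both directions. Of 30 listed, 27 were tested, 2 were higher and 4 were lower (median -0.24). Fdft1, the squalene synthase, was at 45, 26.1 and 69.4 CPM in Nr5a2 KD, 131 and 96.6 CPM in control and 474, 218 and 119 CPM in Klf5 KD (log2 fold change 2.51, SE 0.463, adjusted p = 0.00339 by edgeR). Msmo1, a later enzyme of the pathway, was at 47.1, 39.5 and 65.8 CPM in Nr5a2 KD and 309.7, 105 and 128 CPM in Klf5 KD (log2 fold change 1.82, SE 0.383, adjusted p = 0.00711 by edgeR). For both genes the groups did not overlap and Klf5 KD replicate 1 was the highest library. Pmvk, a kinase early in the pathway, was at 10.5, 13.9 and 15.1 CPM in Nr5a2 KD and 5.31, 3.54 and 4.4 CPM in Klf5 KD (log2 fold change -1.58, SE 0.358, adjusted p = 0.0111 by edgeR). Cyp51, a demethylase of the pathway (-1.64), and Insig1, which retains the sterol sensor in the endoplasmic reticulum (-1.39), were also lower in Klf5 KD. The call on Fdft1 held in every alternative. That on Msmo1 was lost with ERCC library sizes (1.67). Pmvk lost its call with ERCC library sizes (-1.74) and without Klf5 KD replicate 2 (-1.41). Cyp51 lost its call with ERCC library sizes (-1.87) and without any 1 of Klf5 KD replicates 1 and 2 and Nr5a2 KD replicates 1, 2 and 3 (-1.38 to -1.81). Insig1 lost its call with ERCC library sizes (-1.49) and without any 1 of Klf5 KD replicates 1 and 2 and Nr5a2 KD replicates 1 and 2 (-1.21 to -1.38).

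Of 29 genes of glycolysis and pyruvate entry, 24 were tested, 2 were higher and 3 were lower (median -0.06). Both subunits of the mitochondrial pyruvate carrier were higher in Klf5 KD. Mpc2 was at 581, 421 and 528 CPM in Nr5a2 KD and 1462, 1135 and 1172 CPM in Klf5 KD, with 897 and 842 CPM in control (log2 fold change 1.28, SE 0.247, adjusted p = 0.00435 by edgeR). Mpc1 was at 139, 112 and 97.7 CPM in Nr5a2 KD, 292, 229 and 233 CPM in Klf5 KD and 429 and 407 CPM in control (log2 fold change 1.10, SE 0.254, adjusted p = 0.0125 by edgeR), so it was below control in both. Hk2, a hexokinase, was at 52.4, 38.8 and 34.8 CPM in Nr5a2 KD, 18.9, 6.02 and 12 CPM in Klf5 KD and 12.9 and 15.2 CPM in control (log2 fold change -1.78, SE 0.373, adjusted p = 0.00705 by edgeR). Ldha, which converts pyruvate to lactate, was at 17.6, 11.8 and 22.6 CPM in Nr5a2 KD and 6.12, 7.2 and 2.2 CPM in Klf5 KD (log2 fold change -1.74, SE 0.429, adjusted p = 0.0167 by edgeR). For both enzymes every Nr5a2 KD library was above every Klf5 KD and control library. Pfkm, a phosphofructokinase, was low in every library and lower in Klf5 KD (-3.18). The call on Hk2 held in every alternative. Mpc2 lost its call with ERCC library sizes (1.15). Mpc1 lost its call with ERCC library sizes (1.02) and total counts (0.94) and without any 1 of Klf5 KD replicate 1 and Nr5a2 KD replicate 2 (0.99 to 1.07). Ldha lost its call with ERCC library sizes (-1.86) and without any 1 of Nr5a2 KD replicates 1 and 3 (-1.49 to -1.74). Pfkm lost its call without any 1 of Klf5 KD replicates 1 and 2 and Nr5a2 KD replicate 2 (-2.74 to -3.34).

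Of 88 nuclear genes of oxidative phosphorylation, 87 were tested and 1 was called, Ndufa8, a subunit of complex I, at 36.9, 27.8 and 33.9 CPM in Nr5a2 KD, 106 and 109 CPM in control and 221, 145 and 140.3 CPM in Klf5 KD (log2 fold change 2.34, SE 0.282, adjusted p = 0.000283 by edgeR). Its Klf5 KD libraries were above, and its Nr5a2 KD libraries below, both control libraries. The median of the list was 0.07. By edgeR, 0 of the 85 cytosolic ribosomal protein genes and 0 of the 13 mitochondrially encoded genes were called, with 2 and 0 of them at an unadjusted p under 0.05 and 0 called by DESeq2. Of 48 proteasome genes, 45 were tested and 3 were higher in Klf5 KD (median 0.14). Besides Psme1 these were Psmg1, an assembly chaperone, at 45.6, 25.8 and 35.3 CPM in Nr5a2 KD and 125, 84.9 and 89.2 CPM in Klf5 KD (log2 fold change 1.48, SE 0.289, adjusted p = 0.00478 by edgeR), and Psmc4, an ATPase of the regulatory particle, at 67.7, 50.3 and 129 CPM and 335, 182 and 119 CPM, which overlap. Of 38 lysosome genes, 35 were tested and 3 were higher (median 0.07). Among them were Ctsh, a protease, at 19, 11.7 and 15.2 CPM in Nr5a2 KD and 56, 44.3 and 40.7 CPM in Klf5 KD (log2 fold change 1.60, SE 0.286, adjusted p = 0.00289 by edgeR), and Psap at 15.6, 8.95 and 5.4 and 23, 29.2 and 27.9 CPM. The call on Psmg1 was lost with ERCC library sizes (1.36). That on Ctsh was lost with ERCC library sizes (1.5). That on Psmc4 was lost with ERCC library sizes (1.16), total counts (1.15) and all 12 libraries in 1 fit (1.36) and without any 1 of Klf5 KD replicates 1 and 2 and Nr5a2 KD replicates 1 and 2 (0.86 to 1.5). Psap lost its call with ERCC library sizes (1.37) and without any 1 of Klf5 KD replicate 2 and Nr5a2 KD replicates 2 and 3 (1.11 to 1.36).

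Of 25 glucose and amino acid transporters, 13 were tested, 3 were lower in Klf5 KD and the median was -0.97, the lowest of all lists. Slc3a2 and Slc7a5 encode the chains of the large neutral amino acid transporter. Slc3a2 was at 56.7, 38 and 66.6 CPM in Nr5a2 KD, 33.5, 13.1 and 13.4 CPM in Klf5 KD and 17.6 and 7.11 CPM in control (log2 fold change -1.43, SE 0.372, adjusted p = 0.0218 by edgeR). Slc7a5 was at 7.43, 9.64 and 5.65 CPM and 3.06, 2.72 and 2.79 CPM (log2 fold change -1.42, SE 0.413, adjusted p = 0.0373 by edgeR), and Slc1a5, a glutamine transporter, at 5.66, 7.99 and 13.8 CPM and 3.06, 2.36 and 2.2 CPM (log2 fold change -1.85, SE 0.446, adjusted p = 0.0154 by edgeR). In all 3 the groups did not overlap. None of the calls held with each library left out. Slc3a2 lost its call with ERCC library sizes (-1.57) and without any 1 of Klf5 KD replicates 2 and 3 and Nr5a2 KD replicates 1 and 3 (-1.16 to -1.40). Slc7a5 lost its call with ERCC library sizes (-1.46) and no filter (-1.40) and without any 1 of Klf5 KD replicates 1, 2 and 3 and Nr5a2 KD replicates 1 and 2 (-1.20 to -1.46). Slc1a5 lost its call without any 1 of Klf5 KD replicate 2 and Nr5a2 KD replicate 3 (-1.41 to -1.76). Of 29 genes of glutathione and peroxide detoxification, 26 were tested, 3 were higher and 2 were lower (median -0.17). Mgst3, a membrane-bound glutathione transferase, was at 48.2, 28.9 and 46.5 CPM in Nr5a2 KD, 2.88, 1.89 and 7.05 CPM in Klf5 KD and 5.91 and 2.55 CPM in control (log2 fold change -3.43, SE 0.441, adjusted p = 0.000446 by edgeR). Gsta4, a transferase that clears lipid aldehydes, was at 3.66, 4.68 and 7.28 CPM in Nr5a2 KD and 28.3, 23.3 and 20.4 CPM in Klf5 KD, on both sides of control at 13.2 and 13.1 CPM (log2 fold change 2.19, SE 0.351, adjusted p = 0.0016 by edgeR). Gpx4, which reduces lipid peroxides, was higher (1.10), as was Prdx3, a mitochondrial peroxidase (1.12), and Gstm1 was lower (-2.24). Gpx4 lost its call with ERCC library sizes (1.05) and total counts (0.95) and without any 1 of Nr5a2 KD replicates 2 and 3 (0.91 to 1.11). Prdx3 lost its call with ERCC library sizes (0.91), total counts (0.93), the stricter filter (1.09) and the mitochondrial share in the model (0.92) and without any 1 of Klf5 KD replicates 1 and 2 and Nr5a2 KD replicates 1 and 2 (0.85 to 1.20). Gstm1 lost its call with ERCC library sizes (-2.52) and all 12 libraries in 1 fit (-2.23) and without any 1 of Klf5 KD replicates 2 and 3 and Nr5a2 KD replicates 1 and 3 (-1.59 to -2.23).

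Of 38 cell cycle genes, 34 were tested, 2 were higher and 3 were lower (median -0.05). The higher ones act at the entry into mitosis. Cdk1 was at 129, 133 and 165 CPM in Nr5a2 KD and 649.9, 326 and 228 CPM in Klf5 KD (log2 fold change 1.48, SE 0.344, adjusted p = 0.0127 by edgeR), and Cdc25b is given above. Mki67, the proliferation antigen Ki-67, was at 96.8, 81.8 and 113 CPM in Nr5a2 KD, 17.6, 42.5 and 50.8 CPM in Klf5 KD and 47.4 and 40.4 CPM in control (log2 fold change -1.41, SE 0.348, adjusted p = 0.0167 by edgeR). Cdkn1a, the inhibitor p21, was at 56.3, 39.5 and 73.1 CPM in Nr5a2 KD and 30.9, 19.1 and 18.6 CPM in Klf5 KD (log2 fold change -1.31, SE 0.31, adjusted p = 0.0138 by edgeR), and Ccnd3, a D-type cyclin, was lower too (-1.19). The call on Cdk1 was lost with ERCC library sizes (1.41) and without any 1 of Klf5 KD replicate 1 and Nr5a2 KD replicates 1 and 2 (0.95 to 1.44). That on Mki67 was lost with ERCC library sizes (-1.69) and without Nr5a2 KD replicate 1 (-1.42). Cdkn1a lost its call with ERCC library sizes (-1.49) and without any 1 of Klf5 KD replicate 2 and Nr5a2 KD replicate 3 (-1.06 to -1.16). Ccnd3 lost its call with ERCC library sizes (-1.32) and without any 1 of Klf5 KD replicates 1 and 2 and Nr5a2 KD replicate 2 (-0.96 to -1.28). Of the 46 genes of DNA replication, edgeR called 0, with 6 at an unadjusted p under 0.05 and 1 called by DESeq2 (median 0.01).

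Of 36 genes of homologous recombination and the Fanconi pathway, 33 were tested, 4 were higher and 2 were lower (median 0.10). Fance, a subunit of the Fanconi core complex, was at 2.71, 3.31 and 2.51 CPM in Nr5a2 KD, 12.1, 14.1 and 15.1 CPM in Klf5 KD and 19.6 and 14.6 CPM in control (log2 fold change 2.26, SE 0.363, adjusted p = 0.00162 by edgeR). Rad51c, which acts in homologous recombination, was at 4.6, 2.76 and 1.38 CPM in Nr5a2 KD and 9.62, 12.9 and 10.4 CPM in Klf5 KD, with 11.1 and 12.3 CPM in control (log2 fold change 1.89, SE 0.447, adjusted p = 0.014 by edgeR). In both genes Nr5a2 KD was below every Klf5 KD and control library. Fancd2, which is ubiquitinated at stalled forks (1.27), and Rbbp8, which starts end resection (1.10), were also higher in Klf5 KD. Atr, the kinase of the replication checkpoint, was at 18.6, 34.3 and 29.5 CPM in Nr5a2 KD, 6.48, 8.03 and 12 CPM in Klf5 KD and 11.7 and 9.19 CPM in control (log2 fold change -1.66, SE 0.348, adjusted p = 0.00706 by edgeR), and Rad54l was also lower (-1.10). The call on Rad51c was lost without Klf5 KD replicate 2 (1.79). Fancd2 lost its call with ERCC library sizes (1.08) and total counts (1.09) and without any 1 of Klf5 KD replicate 2 and Nr5a2 KD replicates 1 and 2 (1.04 to 1.35). Rbbp8 lost its call with ERCC library sizes (0.99) and total counts (0.94) and without any 1 of Klf5 KD replicates 2 and 3 and Nr5a2 KD replicates 1 and 3 (0.93 to 1.07). Rad54l lost its call with ERCC library sizes (-1.27) and without any 1 of Klf5 KD replicates 1 and 3 and Nr5a2 KD replicates 1, 2 and 3 (-0.95 to -1.18).

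Of 31 p53 target genes, 25 were tested, 2 were higher and 4 were lower (median -0.45), and Cdkn1a, given above, is among the lower ones. Perp, a membrane protein of apoptosis and desmosomes, was at 66.2, 47.3 and 67.2 CPM in Nr5a2 KD, 6.12, 4.72 and 12.2 CPM in Klf5 KD and 13.6 and 12.7 CPM in control (log2 fold change -3.0, SE 0.362, adjusted p = 0.000283 by edgeR). Its lowest Nr5a2 KD library was above every Klf5 KD and control library, and dKD held 44, 43.7, 48.5 and 37.7 CPM. Plk2, a polo-like kinase (-1.95), and Btg2, an antiproliferative factor (-2.24), were lower as well. Ei24 (1.33) and Trp53inp1 (1.15) were higher. Plk2 lost its call without any 1 of Klf5 KD replicate 2 and Nr5a2 KD replicate 3 (-1.60 to -1.71). Btg2 lost its call without any 1 of Klf5 KD replicates 1 and 2 and Nr5a2 KD replicate 3 (-1.18 to -2.55). Ei24 lost its call with ERCC library sizes (1.20) and without any 1 of Nr5a2 KD replicates 1 and 3 (1.19 to 1.28). Trp53inp1 lost its call with ERCC library sizes (1.0) and total counts (0.98) and without any 1 of Klf5 KD replicates 2 and 3 and Nr5a2 KD replicates 1 and 3 (0.97 to 1.14).

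Ifitm1, Ifitm2 and Ifitm3, related membrane proteins that restrict virus entry, were lower in Klf5 KD. Ifitm2 was at 217, 241 and 219 CPM in Nr5a2 KD, 27.3, 49.6 and 50.6 CPM in Klf5 KD and 41.8 and 58.4 CPM in control (log2 fold change -2.43, SE 0.292, adjusted p = 0.000283 by edgeR). Ifitm1 was at 93.7, 96.9 and 72.7, 33.9, 18.8 and 25.1 and 22.6 and 28 CPM (log2 fold change -1.77, SE 0.287, adjusted p = 0.00168 by edgeR), and Ifitm3 at 14.6, 8.38 and 16.5, 3.87, 2.83 and 3.67 and 1.36 and 1.88 CPM (log2 fold change -1.94, SE 0.388, adjusted p = 0.0054 by edgeR). In all 3 the Nr5a2 KD libraries were above every Klf5 KD and control library. In dKD Ifitm2 held 176, 263, 237 and 167 CPM. These genes are close copies of each other, and the counting command did not include reads that align to several places, so their levels are less certain. Of the 28 interferon response genes, 12 were tested, 4 were lower and 1 was higher (median -0.61), the others being H2-D1, a class I antigen (-1.36), and Ddx58, the RNA sensor RIG-I (2.78). H2-D1 lost its call with ERCC library sizes (-1.44) and without any 1 of Klf5 KD replicates 2 and 3 and Nr5a2 KD replicates 1, 2 and 3 (-1.15 to -1.44). Ddx58 lost its call with ERCC library sizes (2.31), total counts (2.56) and all 12 libraries in 1 fit (2.79) and without any 1 of Klf5 KD replicates 1, 2 and 3 and Nr5a2 KD replicates 1 and 2 (2.27 to 3.05).

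Of 35 imprinted genes, 20 were tested, 2 were higher and 4 were lower (median 0.27). Sfmbt2, a Polycomb-related gene expressed from the paternal allele, was at 24.1, 14.1 and 20.5 CPM in Nr5a2 KD, 1.8, 1.77 and 1.17 CPM in Klf5 KD and 3.18 and 2.95 CPM in control (log2 fold change -3.61, SE 0.394, adjusted p = 0.00016 by edgeR). Jade1, a subunit of a histone acetyltransferase complex, was at 32, 30.2 and 39.2 CPM in Nr5a2 KD and 7.11, 7.09 and 17.5 CPM in Klf5 KD (log2 fold change -1.71, SE 0.368, adjusted p = 0.00836 by edgeR). Zdbf2, a paternally expressed gene, was at 6.96, 11.4 and 7.03 and 0.855, 3.25 and 1.17 CPM (log2 fold change -2.25, SE 0.53, adjusted p = 0.0134 by edgeR). Rasgrf1, a Ras activator, was at 1.89, 3.03 and 1.88 CPM in Nr5a2 KD and had 0 counts in Klf5 KD and in control, against 53 counts over the Nr5a2 KD group, so it was at least 19.7-fold lower in Klf5 KD by a floor of 3 counts (adjusted p = 0.00251 by edgeR). Igf2r, the maternally expressed receptor that clears IGF2, was at 30.4, 33.8 and 14.1 CPM in Nr5a2 KD, 91, 101 and 116 CPM in Klf5 KD and 115 and 118 CPM in control (log2 fold change 1.96, SE 0.325, adjusted p = 0.00186 by edgeR). Usp29, a deubiquitinase, was higher as well (1.53). The data do not separate the parental alleles. Zdbf2 lost its call without Nr5a2 KD replicate 2 (-1.98). Usp29 lost its call with ERCC library sizes (1.41) and without any 1 of Klf5 KD replicate 2 and Nr5a2 KD replicates 1 and 3 (1.16 to 1.5). Of 26 genes of DNA methylation and Polycomb, 21 were tested (median -0.22). Dnmt3b, a de novo methyltransferase, was at 15.1, 11.2 and 13.9 CPM in Nr5a2 KD and 2.34, 4.25 and 4.4 CPM in Klf5 KD (log2 fold change -1.89, SE 0.382, adjusted p = 0.00565 by edgeR). Jarid2, a cofactor of Polycomb repressive complexes, was at 24.6, 41.5 and 40.1 CPM and 94.1, 118 and 106 CPM (log2 fold change 1.57, SE 0.278, adjusted p = 0.0028 by edgeR), and its call was lost with ERCC library sizes (1.42).

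Khdc3, a component of the subcortical maternal complex, was at 23.9, 13.8 and 11.7 CPM in Nr5a2 KD, 154, 152 and 122 CPM in Klf5 KD and 91.1 and 105 CPM in control (log2 fold change 3.09, SE 0.317, adjusted p = 0.000135 by edgeR). Its Klf5 KD libraries were above, and its Nr5a2 KD libraries below, both control libraries, and dKD held 17.2, 8.44, 7.91 and 6.97 CPM. With Btg4, given above, it was 1 of 2 called among 22 tested of 30 oocyte and maternal genes (median -0.20). Of 31 genes of the 2-cell stage, 19 were tested, 1 was higher and 2 were lower (median 0.21). Tdpoz2 was at 6.6, 5.1 and 3.27 CPM in Nr5a2 KD and 29.2, 13.7 and 14.4 CPM in Klf5 KD (log2 fold change 1.92, SE 0.405, adjusted p = 0.00723 by edgeR), and Tdpoz1, a near copy, at 18.4, 18.7 and 23.1 CPM and 6.33, 12.6 and 9.39 CPM, with the opposite sign. Obox3, a homeobox gene, was low in every library and lower in Klf5 KD (-2.35). Genes of both families share long stretches of sequence, which makes their counts less certain. Obox3 lost its call with ERCC library sizes (-2.36) and without any 1 of Klf5 KD replicates 2 and 3 and Nr5a2 KD replicates 1, 2 and 3 (-1.89 to -2.56). Tdpoz1 lost its call with ERCC library sizes (-1.28) and all 12 libraries in 1 fit (-1.09) and without any 1 of Klf5 KD replicates 1 and 3 and Nr5a2 KD replicates 1, 2 and 3 (-0.87 to -1.17).

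A list of 16 genes was drawn up as those the study names from its RNA-seq. The study chose its genes on libraries of this series, so their direction is not independent evidence here. The text of the study does not name Tdgf1 or Tead4, and it names Klf4 but not as an RNA-seq result. Of the 16 listed, 6 were higher in Klf5 KD than in Nr5a2 KD (median 0.72): Tdgf1, Klf4, Gata1, Rad51c, Lats2 and Prkcz. Among the others, Tead4, a factor of trophectoderm genes, was at 38.9, 67 and 37.9 CPM in Nr5a2 KD and 66.1, 89.8 and 92 CPM in Klf5 KD (log2 fold change 0.77, SE 0.292, adjusted p = 0.105 by edgeR). Rnaseh2c, a subunit of ribonuclease H2, was at 22.6, 16.4 and 12.7 and 29, 25.2 and 29.6 CPM (log2 fold change 0.68, SE 0.295, adjusted p = 0.16 by edgeR), and Pold1, a DNA polymerase, at 12.9, 10.7 and 7.66 and 14.6, 14.1 and 17 CPM (adjusted p = 0.339 by edgeR). Prkcd was at 16.3, 21.2 and 25.4 CPM in Nr5a2 KD and 24.9, 34 and 17.6 CPM in Klf5 KD, with control at 42.6 and 40.5 CPM (adjusted p = 0.655 by edgeR). Aunip was at 5.07, 5.65 and 9.55 and 6.03, 7.32 and 7.93 CPM with control at 20.9 and 11 CPM (adjusted p = 0.956 by edgeR), so for Prkcd and Aunip both knockdowns lay below both control libraries and did not separate from each other. Ryk and Smad7 had log2 fold changes of 0.67 and 0.47, with adjusted p values of 0.281 and 0.671 by edgeR. The limits given above for the last 4 of the called genes hold here too.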

How the data were processed

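Pools of 10 mouse embryos at the 8-cell stage were sequenced as polyadenylated RNA in 12 libraries: 2 control, 3 Nr5a2 KD, 3 Klf5 KD and 4 dKD, grouped by their labels. The authors deposited 1 table per library with estimated counts of read pairs per gene, fractional where a pair overlapped several genes. Per the file headers, featureCounts 2.0.1 counted exons without strand on GRCm38 extended by the ERCC and H2B-EGFP sequences, from filtered alignments whose filter is not given in the sources used here, and Trim Galore 0.6.2 and STAR preceded it. Overlapping genes therefore share reads: 19 of the 147 named genes had a value that was not whole in 6 or more libraries, and a gene cannot be told apart from its antisense partner. The Ifitm, Tdpoz, Obox and Hba genes have near-identical copies.

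Counts were rounded to whole numbers, genes were kept by filterByExpr (minimum count 10, minimum total count 15), and the 3 Klf5 KD were compared with the 3 Nr5a2 KD libraries by edgeR 4.0.16 (TMM factors, quasi-likelihood test, R 4.3.3), with Benjamini-Hochberg adjustment over all tested genes. A call needed an adjusted p under 0.05 and a 2-fold change. CPM values use TMM factors. The same test set each knockdown against control; those of the single knockdowns share the control libraries. Gene counts were 7000245 to 8873766 in Nr5a2 KD and 7552156 to 12560926 in Klf5 KD, so a gene at 1 CPM rests on about 10 counts. Alternatives were DESeq2 1.42.0, other library sizes (DESeq2 size factors, total counts, ERCC counts), other filters, a fit of all 12 libraries, the replicate number or the mitochondrial share in the model, unrounded counts and each library left out. The code was tested on simulated data.

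The comparison and the lists were chosen with earlier results of these data known. Named were the 8 genes with the largest fold change in each direction. Added were the 5 in each direction with control between the groups and the 5 in each direction apart from control in Klf5 KD alone. All of these were at 10 CPM or more in a group. Up to 4 called genes per list, the targets and the genes listed as named by the study were named too. Further called list members, Isl2 and Kdelr3 were named after their values were seen. RefSeq promoter windows existed for 71.5% of the higher and 73.1% of the lower genes, under the 80% needed, so a comparison of motif shares between all called genes is void. Some genes that the rule names are not reported here. Other assays of the study were not analysed here. Figures were drawn with matplotlib 3.10.9 in Python 3.11.15.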

Additional observations from a re-analysis of the deposited data

Results flagged for a closer look

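Among the 4 dKD libraries, 10 of the 147 named genes had 1 library far from the other 3 by Dixon's criterion, which chance meets in about 1 of 20 groups. The highest library stood apart for Pla2g7 (1.83 CPM, with the next at 0), Psme1 (6.64 CPM, next 1.89), Mbl2 (3.12 CPM, next 0.472), Khdc3 (17.2 CPM, next 8.44), Bmpr1a (48.2 CPM, next 37.4), Slc7a5 (8.47 CPM, next 5.39) and the Y-linked gene Eif2s3y (80.8 CPM, next 51). The lowest library stood apart for Fdft1 (29.1 CPM, next 59.4), Apoa1 (1.13 CPM, next 2.72) and Rasgrf1 (1.89 CPM, next 2.66). The cause was not tested. None of these libraries enters the main comparison of Klf5 KD with Nr5a2 KD, whose groups of 3 were not tested by this criterion.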

How the results depend on the processing

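The Nr5a2 difference was called in every alternative (log2 fold change 2.33 to 2.84) and the Klf5 difference in none (-0.56 to -0.10). With ERCC library sizes the 738 genes higher and 710 lower in Klf5 KD became 271 and 454, and with a mean of at least 50 normalized counts 413 were lower. With 1 library left out, which leaves 2 against 3, they were 510 to 731 and 417 to 754. The 332 genes also lower in dKD became 100 with ERCC library sizes and 79 to 374 with a library left out, and the 218 also higher in dKD became 346 with no filter and 29 to 237 with a library left out, the lowest without a control library, where the lone control is assumed to vary like the other groups. By alternatives chosen after seeing the data, the 176 genes with control between the groups and Klf5 KD on top became 107 with total counts and 133 to 283 with a library left out, and the 166 of the reverse order became 63 with ERCC library sizes and 125 to 293. Causes of these shifts were not tested.

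The fit with a replicate block called 682 genes higher and 642 lower, 658 and 595 of them shared with the calls above, and 14 of the 124 named calls were lost, among them those on Akr1b8, Bmpr1a, Spry1, Map3k1, Mapk13, Cyp51, Insig1, Slc7a5, Gstm1, Prdx3, Tdpoz1 and Rad54l. Libraries with the same number did not deviate together (correlations of 0.02, 0.08 and -0.32 for replicates 1, 2 and 3). Not every library correlated best with its own number. Correlations over all tested genes cannot show whether libraries of the same number shared a litter or an injection day. Whether the numbers pair the libraries is therefore not known. Of the 124 named calls, 52 held in all of the 16 alternatives that kept the gene. A gene dropped by the filter of an alternative was not tested there and counts as held. Lost were 59 calls with ERCC library sizes, 63 with a library left out and 4 with the mitochondrial share in the model, and 0 reversed. Genes under 1 CPM in a group rest on about 10 counts per library or fewer, which limits their fold changes.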
